A study of Mus musculus with 2 samples.

Results

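The genes described here are 8 mouse genes of the death receptor and necroptosis machinery, among 55536 annotated genes measured. They were chosen by name, not by a rule on their values, but with earlier results of these data known. They are the death receptor gene Fas, the adaptor gene Fadd, the initiator caspase gene Casp8, its relative and regulator Cflar, the kinase genes Ripk1 and Ripk3, the necroptosis effector gene Mlkl and the caspase inhibitor gene Xiap. Values were found for all of their Ensembl gene identifiers in every gene table used. Total RNA was sequenced from neutrophils, the short-lived granulocytes of the blood, isolated from peripheral blood of adult C57BL/6J mice aged 5 to 6 weeks. The labels name no treatment and no altered allele, and they give the sex as not collected. There were 2 libraries in 1 group, called replicate 1 and replicate 2 after their biological replicate numbers. Both carry 1 donor identifier, so the spread between them may be technical. No second condition was available, so no test between conditions was possible. Levels are TPM on the GENCODE M21 gene models, the transcripts of a gene scaled by effective length to a fixed total per library, and errors are SD over the 2 libraries (n = 2 throughout).

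Engagement of the receptor Fas recruits the adaptor FADD, which in turn binds caspase-8 through death effector domains. Caspase-8 dimers start apoptosis, while the long protein form of Cflar, cFLIP, pairs with caspase-8 and restrains its triggering of apoptosis. Where caspase-8 is held inactive, the kinases RIPK1 and RIPK3 join through a short shared segment, the RHIM, and RIPK3 phosphorylates MLKL, which breaches the plasma membrane in necroptosis. XIAP blocks the effector caspases downstream of caspase-8 and also restrains necroptotic signalling. Blood neutrophils are known for a short life that ends mostly in apoptosis, and Fas is one of the receptors that can hasten it.

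The Cflar sequences come first because they mark where the long and short protein forms part. Both forms share 204 codons (612 nt), and at the end of that shared exon (GRCm38 chromosome 1, position 58732326, plus strand) the long form is spliced to an exon that starts at position 58735658. The short form reads on into the adjoining sequence for 11 codons of its own. In the lines below, taken from GENCODE M21 transcripts (5′ to 3′), the last 30 shared nt are in lower case and the 33 nt that follow in each form are in capitals.
Cflar-205, long form, chr1:58732297-58735690 (plus strand, spliced): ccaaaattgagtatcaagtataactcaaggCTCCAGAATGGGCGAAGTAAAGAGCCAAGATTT
Cflar-204, short form, chr1:58732297-58732359 (plus strand): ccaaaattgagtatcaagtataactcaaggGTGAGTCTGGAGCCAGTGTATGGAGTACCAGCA
Translated from these models, the long form has 481 residues and the short form 215. The short form of the mouse gene is known as cFLIP R.

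The following lines show the codon of the catalytic cysteine of Casp8 and the codon at the matching place of Cflar, each in capitals within coding sequence of the same transcript release. In a global alignment of the 2 translated proteins, 136 of 433 aligned residues were identical (31.4%). The alignment left a gap at the cysteine itself, so the Cflar codon shown is the one that lies as many residues (2) past the last residue paired in both.
Casp8-202, codon 362, chr1:58844595-58844645 (plus strand): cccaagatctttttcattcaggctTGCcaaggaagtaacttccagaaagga
Cflar-205, codon 362, chr1:58752599-58752649 (plus strand): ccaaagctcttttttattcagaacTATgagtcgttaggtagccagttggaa
The codon TGC encodes cysteine and TAT encodes tyrosine. The long form of cFLIP is known to lack caspase activity for want of this cysteine.

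The RHIM ties Ripk1 to Ripk3, and the lines below give the codons of its conserved core in capitals, with flanking coding sequence in lower case.
Ripk1-201, core from residue 528 of 656, chr13:34030054-34030113 (plus strand): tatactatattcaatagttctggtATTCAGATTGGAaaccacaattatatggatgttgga
Ripk3-201, core from residue 448 of 486, chr14:55785281-55785340 (minus strand): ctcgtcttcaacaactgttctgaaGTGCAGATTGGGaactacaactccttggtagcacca
A single core was found in each of these proteins, and both Ripk3 models of 422 residues held it as well.

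Expected counts, the reads estimated for each gene, summed over genes to 22647028 and 21471719 for replicates 1 and 2. Protein-coding genes took 72.6% and 71.5% of these counts but 8.81% and 8.35% of the TPM, so TPM values of messenger RNAs are low on this scale. The label was checked against marker lists. All 10 neutrophil markers were detected, meaning that each library gave a TPM of 1 or more, with a median TPM of 71.7 and 69.9, from S100a9 (1199 ± 107) to Ly6g (2.10 ± 0.269). All 8 B cell markers were detected too, with a median of 53.5 and 46.3, from Ighm (276 ± 20.3) to Pax5 (16.0 ± 1.46), and their TPM summed to 669 and 599, against 2531 and 2563 for the neutrophil list. The red cell list summed higher than both, to 4327 and 4263. Medians were 263 and 257 for 6 red cell markers, 5.31 and 5.02 for 5 platelet markers, 5.04 and 4.56 for 6 monocyte markers, 2.90 and 2.58 for 8 T cell markers, and 0.44 and 0.29 for 5 natural killer cell markers. None of the B cell markers stood at 0. The values below are therefore those of a blood cell fraction with B cell and red cell transcripts in it. Most markers of the platelet, monocyte and T cell lists were detected as well (5 of 5, 5 of 6 and 7 of 8). The part of all these cells in the levels of the 8 genes was not tested. Fewer cells of a type and less RNA per cell cannot be told apart in such libraries.

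The 8 genes spanned levels from a mean TPM of 14.9 for Cflar to 0.215 for Mlkl. Of the 8, 6 were detected, against 34.9% of 22015 protein-coding genes. Their median TPM was 5.41 in replicate 1 and 4.72 in replicate 2 (5.06 ± 0.488), beside medians of 4.42 and 4.15 over all detected protein-coding genes and of 0.12 and 0.11 over all protein-coding genes. At a stricter limit of 5 TPM, 3 of the 8 passed, and all 8 passed at a limit of 0.1 TPM or of 10 expected counts. In the alignment-free table, a further deposited estimate made without aligned reads, the median was 8.57, and it was 58.9 when the main TPM was rescaled to protein-coding genes. On that rescaled measure the 2 lowest genes also stood above 1, Fadd at 3.745 and 2.87 and Mlkl at 2.61 and 2.40. Cflar ranked 1054 among protein-coding genes by mean TPM, Casp8 2192, Fas 3194, Ripk1 3229, Xiap 3463, Ripk3 6153, Fadd 9983 and Mlkl 10311. In the order of levels, Fas and Ripk1 did not differ beyond their spread, with a mean log2 ratio of 0.02 ± 0.06. Ripk1 stood above Xiap by 0.12 ± 0.03 on the log2 scale, yet with the older GENCODE M4 models Xiap stood above Ripk1 in replicate 1 (TPM of 5.32 and 5.17) and below it in replicate 2 (4.54 and 4.73). All other neighbours differed by more than the SD of their log2 ratio. Fadd and Mlkl, however, changed places in replicate 2 of the alignment-free table, where their tpm were 0.359 and 0.668. In that table the mean of Mlkl (0.498) also stood above that of Fadd (0.451).

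**Figure D1:**
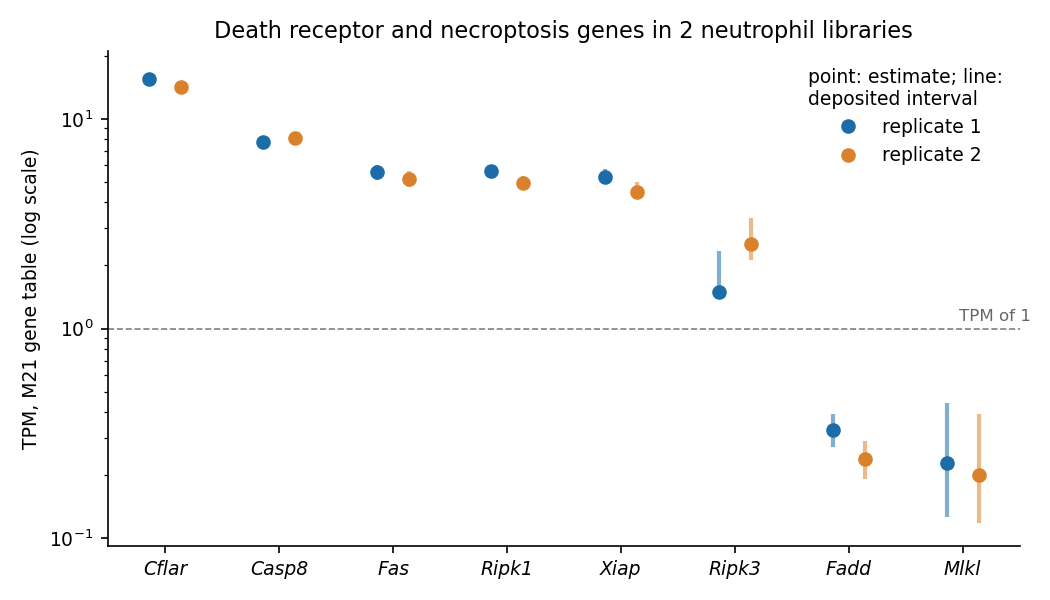
TPM (log scale) of the 8 genes in replicate 1 and replicate 2, with vertical lines for the interval deposited with each estimate and a dashed line at a TPM of 1. Cflar stood highest at 15.5 and 14.2, Fadd and Mlkl stood under 1 in both libraries, and Ripk3 showed the widest gap between the libraries, at 1.49 and 2.52.

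Fas and Fadd, the receptor and the adaptor that binds its tail, differed widely in level. Fas (ENSMUSG00000024778.13, GRCm38 chr19:34290666-34327772, plus strand) had a TPM of 5.55 in replicate 1 and 5.16 in replicate 2, from 669 and 627 expected counts. Fadd (ENSMUSG00000031077.7, chr7:144577318-144582463, minus strand) had 0.33 and 0.24, from 122 and 89 counts. Fadd was thus read in both libraries, well above the 3 counts that a gene with none would allow, but stayed under a TPM of 1 in each. The deposited intervals of the Fadd estimate ran from 0.274 to 0.390 and from 0.193 to 0.291, and so overlapped. Against Casp8, the caspase it recruits, Fadd was lower by 28.1-fold (log2 ratio of -4.81 ± 0.36, with -4.56 and -5.07 in the 2 libraries). A single Fadd transcript, coding for 205 residues, is annotated, so no division of reads between transcripts enters its level. Its antisense partner Faddos, which shares 242 nt with its coding sequence on the opposite strand, had 0 counts in both libraries.

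Most of the Fas signal fell on the transcript for the full receptor. Fas-201, which codes for 327 residues, took 84.8% and 83.1% of the TPM of the gene. In the alignment-free table its share was lower, at 65.5% and 60.8%. There the short non-coding transcript Fas-205 took 18.0% and 19.2%, against 4.43% and 5.44% in the main table, and Fas-202, which codes for 63 residues, took 10.4% and 12.8%, against 4.23% and 3.36%. These 2 minor transcripts had fewer than 10 expected counts each in either library of the main table, so their shares rest on few reads.

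Cflar was the highest of the 8 genes and stood above Casp8 in both libraries. The genes lie side by side on chromosome 1 of GRCm38, Cflar (ENSMUSG00000026031.15) at chr1:58711508-58758884 and Casp8 (ENSMUSG00000026029.14) at chr1:58795374-58847503, on the same strand and 36.5 kb apart. Cflar had a TPM of 15.5 and 14.2 in replicates 1 and 2 (4598.5 and 4448.58 expected counts), and Casp8 had 7.78 and 8.06 (1413.81 and 1497). The libraries did not overlap between the 2 genes, and the mean ratio of Cflar over Casp8 was 1.87-fold (log2 of 0.91 ± 0.12, with 0.99 and 0.82). The ratio is one of gene levels. Cflar-205, which held all of the long form here, had a TPM of 5.34 and 5.27, and the short form Cflar-204 had 1.52 and 1.01. Each stood below Casp8, whose models are all complete coding. By expected counts Cflar-205, a longer model, stood above the Casp8 gene, at 3343.72 and 3321.1. The shares of the forms are given next.

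**Figure D2:**
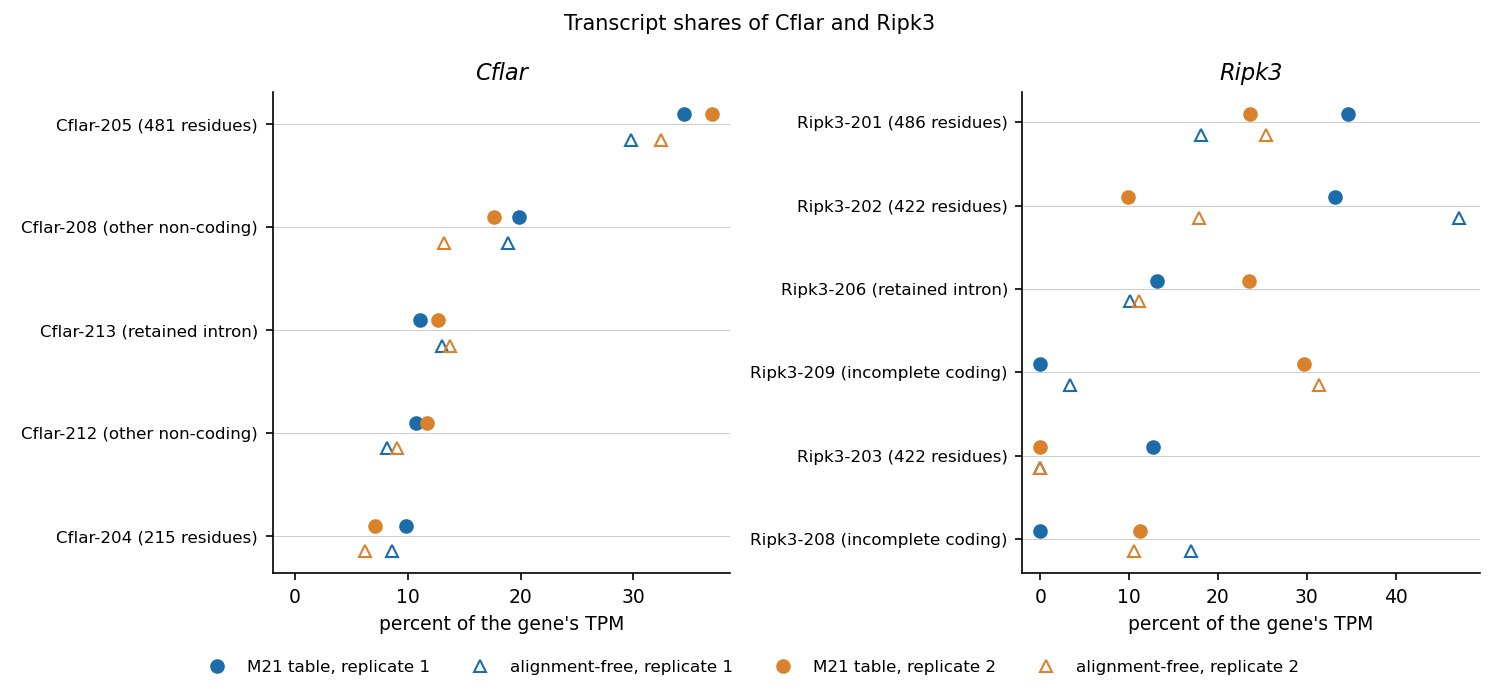
Percent of the gene TPM taken by each named transcript of Cflar (left) and Ripk3 (right) in replicate 1 and replicate 2, as filled circles for the main M21 table and open triangles for the alignment-free table. The shares of Cflar lay close together in the libraries, whereas Ripk3-209 took 0% in replicate 1 and 29.6% in replicate 2 of the main table.

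The long form of Cflar exceeded the short form in both libraries, in the M21 and in the alignment-free transcript table. Transcripts coding for the long protein took 34.5% and 37.0% of the Cflar TPM (35.8 ± 1.81%), all of it on Cflar-205 in the main table. The short form, Cflar-204, took 9.84% and 7.08% (8.46 ± 1.95%). The long form was thus 3.50-fold and 5.23-fold above the short form, and 3.95-fold and 6.20-fold in the alignment-free table. The share depends on the scale, since TPM divides counts by length and Cflar-205, at 6572 nt, is the longest of the 13 Cflar models. Of the expected counts of the gene, the long form held 72.7% and 74.7% and the short form 5.98% and 4.12%, a choice of measure made after the data were seen. No set of reads is counted over the junction in these tables, so the forms rest on the estimates alone.

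The rest of the Cflar TPM lay on transcripts annotated as non-coding. Cflar-208, a processed transcript of 378 nt, took 19.8% and 17.6% of the TPM from 64.01 and 54.13 counts. Cflar-213, a retained intron model of 3677 nt, took 11.04% and 12.72% from 587 and 626 counts. Cflar-212, a processed transcript of 694 nt, took 10.7% and 11.7%. The gene also shares sequence with a copy elsewhere: the processed pseudogene Gm9845 on chromosome 3 matches 598 nt of the Cflar coding sequence at 100% identity. It was listed with 188.5 and 30.42 counts, which is 4.10% and 0.684% of those of Cflar, and reads of the pair cannot be told apart in that stretch.

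All 4 annotated Casp8 models are complete coding transcripts, so their joint share of 100% is set by the annotation. The 480-residue protein, coded by Casp8-201 and Casp8-202, took 77.4% and 89.6% of the TPM, and the 500-residue protein took the remaining 22.6% and 10.4%. Casp8-202 led with 51.7% and 65.3%, Casp8-201 followed with 25.7% and 24.2%, and Casp8-203, of 500 residues, had 22.6% and 10.4%. The share of the 480-residue protein was lower by the alignment-free table, at 62.1% and 80.7%, and again higher in replicate 2. A nearby pseudogene, Gm20257, matches 130 nt of the coding sequence at 99.2% identity and was listed with 67.19 and 68 counts. The unspliced gene model Gm37760 lies within Casp8 on the same strand and had 213 and 247 counts.

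The 3 genes of the necroptosis chain stood in falling order, Ripk1 above Ripk3 and Ripk3 above Mlkl. Ripk1 (ENSMUSG00000021408.15, chr13:34002363-34037147, plus strand) had a TPM of 5.63 and 4.94 from 1857 and 1711 counts. Ripk3 (ENSMUSG00000022221.14, chr14:55784995-55788865, minus strand) had 1.49 and 2.52 from 213 and 203 counts. Mlkl (ENSMUSG00000012519.14, chr8:111311797-111338177, minus strand) had 0.23 and 0.20 from 17 and 21 counts. No library of one gene overlapped with those of the next. The log2 ratio of Ripk1 over Ripk3 was 1.92 in replicate 1 and 0.97 in replicate 2 (1.44 ± 0.67). That of Ripk3 over Mlkl was 2.70 and 3.66 (3.18 ± 0.68). On the M4 models both ratios were nearly the same in the 2 libraries, at 2.07 and 2.03 for Ripk1 over Ripk3 and at 2.42 and 2.54 for Ripk3 over Mlkl.

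Mlkl had the lowest mean TPM of the 8 genes in the main table, and its few reads limited what could be said of it. The deposited intervals of its TPM ran from 0.126 to 0.443 in replicate 1 and from 0.118 to 0.391 in replicate 2. They took in the whole of the Fadd intervals, 0.274 to 0.390 and 0.193 to 0.291, so the order of Mlkl and Fadd is not settled. The complete model Mlkl-202, of 464 residues, had 8.60 and 16.63 expected counts and took 20.9% and 47.6% of the TPM. The non-coding Mlkl-203 took 34.8% and 0%, and the incomplete Mlkl-204 took 44.3% and 52.4%. The difference between the libraries in these shares was not tested, and it rests on 17 and 21 counts in all.

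Ripk3 had nearly equal reads but unequal TPM in the 2 libraries. Its expected counts, scaled to the library totals, had a ratio of replicate 2 over replicate 1 of 1.01 (95% counting interval from 0.825 to 1.22), whereas the TPM ratio was 1.69. The effective length deposited for the gene, by which counts are divided, was 1465.9 nt in replicate 1 and 818.41 nt in replicate 2. Among 7673 detected protein-coding genes, 24 (0.313%) had effective lengths that differed as much, and the median absolute log2 ratio was 0.07 against 0.84 for Ripk3. On the M4 models, with 3 Ripk3 transcripts in place of 9, the effective lengths were 1747.77 and 1752.9 nt and the TPM was 1.23 and 1.16. The alignment-free table gave 2.68 and 3.57. The deposited intervals of the main TPM, from 1.45 to 2.34 and from 2.12 to 3.38, overlapped.

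The effective length of a gene averages those of its transcripts by TPM share, so the Ripk3 shares moved with it by construction. Transcripts with a complete coding sequence took 80.5% of the TPM in replicate 1 and 33.4% in replicate 2. Ripk3-201, which codes for the full 486 residues, took 34.6% and 23.6% from 86.87 and 101.35 counts. Ripk3-202, of 422 residues, took 33.2% and 9.86% from 86.82 and 44.14 counts, and Ripk3-203, also of 422 residues, took 12.7% and 0%. In replicate 2 the incomplete models Ripk3-209 (482 nt) and Ripk3-208 (658 nt) took 29.6% and 11.3% from 23.75 and 13.96 counts, while both stood at 0 in replicate 1. The retained intron model Ripk3-206 (478 nt) took 13.2% and 23.5% from 5.98 and 18.59 counts. The models Ripk3-206, Ripk3-208 and Ripk3-209 are in M21 and not in M4. In the alignment-free table Ripk3-209 likewise took 3.38% and 31.3%, but Ripk3-208 took 16.9% and 10.5%. Whether these short models account for the gap in TPM was not tested.

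**Figure D3:**
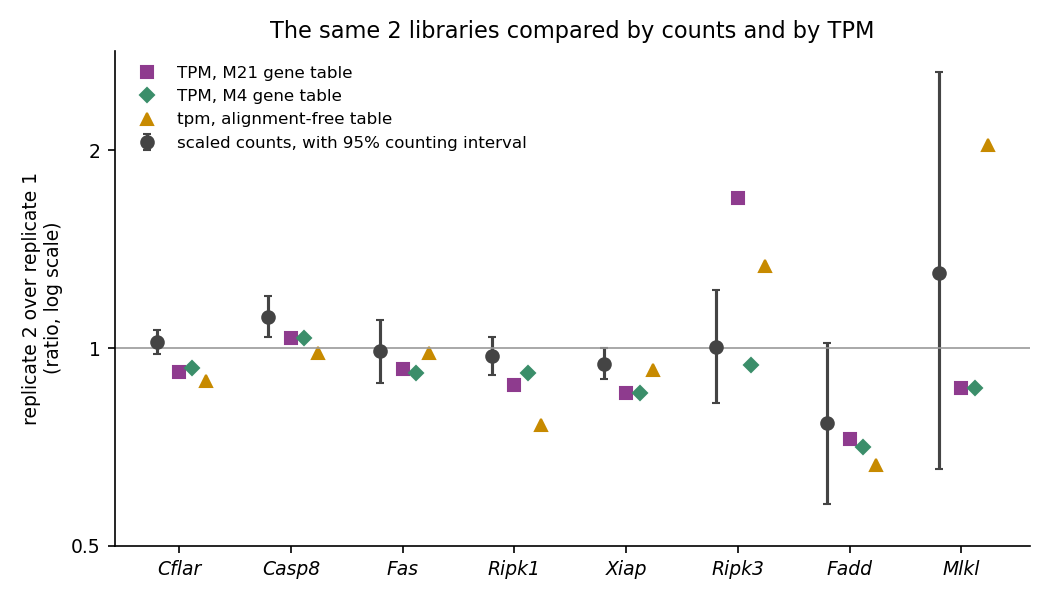
Ratio of replicate 2 over replicate 1 (log scale) for each of the 8 genes, by counts scaled to library totals with their 95% counting interval and by the TPM of 3 tables. For Ripk3 the count ratio was 1.01 and the M4 ratio 0.943, while the M21 and alignment-free TPM ratios were 1.69 and 1.33.

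Ripk1 was estimated more evenly. Ripk1-201 and Ripk1-203 both code for 656 residues, and together they took 79.7% and 72.1% of the TPM. Ripk1-201 took 59.2% and 44.5%, and Ripk1-203, with a longer annotated end, took 20.5% and 27.6%. The retained intron models Ripk1-202 and Ripk1-205 took 10.7% and 11.9% and 9.65% and 8.14%. The incomplete model Ripk1-204 was at 0% and 7.91% in the main table and at 15.4% and 19.4% in the alignment-free table. The gene Serpinb6a overlaps Ripk1 by 432 nt on the opposite strand and had 221 and 254 counts. No source used here says whether strand was used in counting.

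Xiap (ENSMUSG00000025860.15, chrX:42059679-42109656, plus strand), which encodes the inhibitor of effector caspases, stood below Casp8. Its TPM was 5.26 in replicate 1 and 4.49 in replicate 2, from 2802 and 2514 counts. The log2 ratio of Xiap over Casp8 was -0.56 and -0.84 (-0.70 ± 0.20), so Xiap was the lower in both libraries. All 4 complete coding transcripts code for the same 496 residues, and they took 77.4% and 81.5% of the TPM. Xiap-203 held 36.4% and 40.7%, Xiap-202 held 35.7% and 31.5%, and the processed transcript Xiap-206 held 16.5% and 9.30%.

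**Figure D4:**
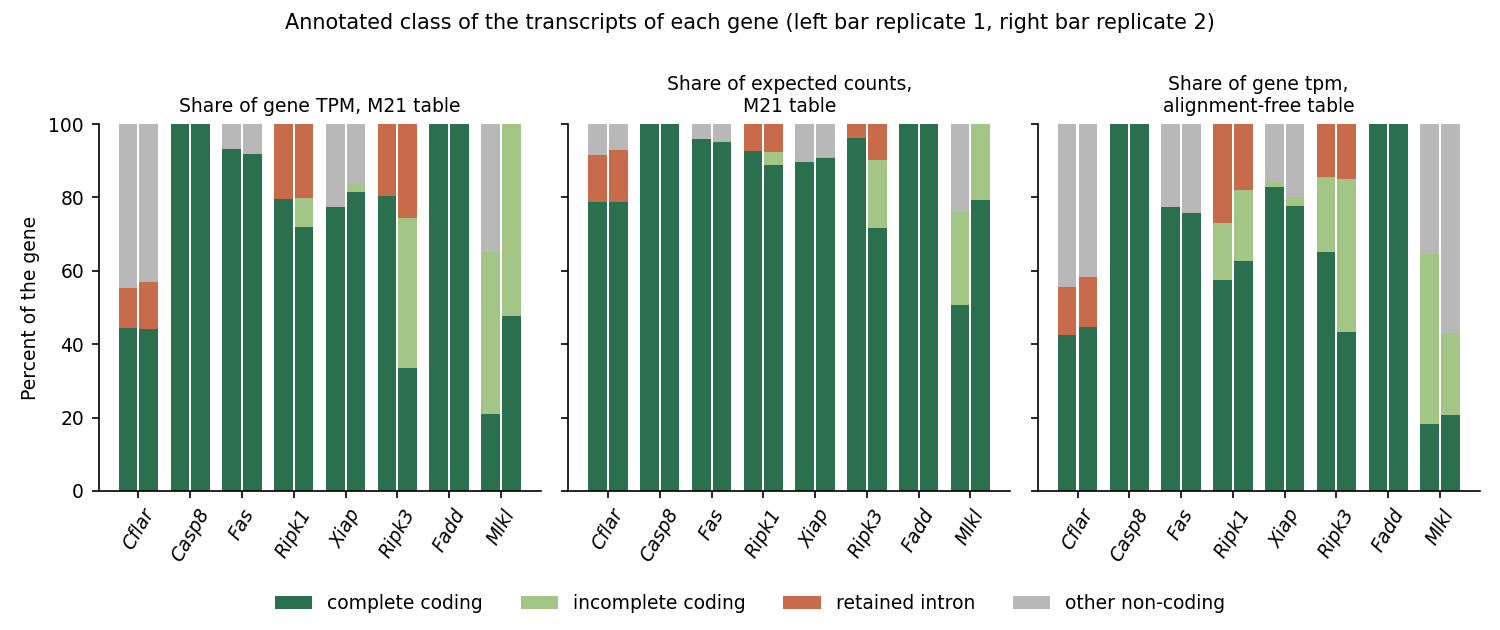
Percent of each gene in complete coding, incomplete coding, retained intron and other non-coding transcripts, with replicate 1 as the left bar and replicate 2 as the right bar, by TPM and by expected counts of the M21 table and by tpm of the alignment-free table. By TPM the complete coding share was 44.3% and 44.1% for Cflar and 80.5% and 33.4% for Ripk3. It was 100% for Casp8 and Fadd, for which no other class of transcript is annotated.

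The share of complete coding transcripts separated the genes more by TPM than by counts. By TPM it was 93.3% and 91.8% for Fas, 79.7% and 72.1% for Ripk1, 77.4% and 81.5% for Xiap, and 44.3% and 44.1% for Cflar. By expected counts it was 96.0% and 95.1% for Fas, 92.7% and 88.8% for Ripk1, 89.7% and 90.8% for Xiap, and 78.7% and 78.8% for Cflar. Retained intron models took 20.3% and 20.0% of the Ripk1 TPM, 19.5% and 25.7% of the Ripk3 TPM and 11.04% and 12.72% of the Cflar TPM. None is annotated for Casp8, Fas, Fadd, Mlkl or Xiap.

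Between the libraries, none of the 8 genes passed the limit for a called difference. It required a TPM of 1 or more in either library and 50 or more counts in the library with the higher TPM. A change of TPM + 1 by 2-fold or more was also required. Of the 8, 6 met the minimum values, and 0.924% of 9095 genes that met them were called. The largest fold of TPM + 1 was that of Ripk3, at 1.41. By counts, the interval left out 1 for Casp8, with a ratio of replicate 2 over replicate 1 of 1.12 (1.04 to 1.20), and narrowly for Xiap, at 0.946 (0.896 to 0.999). It took in 1 for Cflar, Fas, Fadd, Ripk1, Ripk3 and Mlkl. Among 15224 protein-coding genes with a count, 33.6% had an interval that left out 1. Fadd had a ratio of 0.769 (0.579 to 1.02) and Mlkl one of 1.30 (0.655 to 2.63), the widest interval of the 8.

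Around the 8 genes, 34 further genes of the same routes were read in 4 lists. Of the other death receptors and their ligands, 3 of 7 were detected, with a median TPM of 0.295 ± 0.134. Tnfrsf1a, the main receptor for TNF, led with 17.4 ± 0.0778 and so stood above Fas in both libraries. It was followed by the death receptor gene Tnfrsf21 (2.52 ± 0.0849) and the cytokine gene Tnf (1.45 ± 0.0495). The ligand genes Fasl (0.39 and 0.12) and Tnfsf10, which encodes TRAIL (0.21 and 0.20) reached a TPM of 1 in neither library, nor did the receptor genes Tnfrsf25 (0.20 and 0.15) and Tnfrsf10b, the mouse TRAIL receptor (0.12 and 0.07).

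All 12 adaptors and ubiquitin regulators of the TNF receptor complex were detected, with a median TPM of 6.99 ± 0.403. Birc3, which encodes one of the cIAP ubiquitin ligases that modify RIPK1, reached 58.0 ± 4.12 and stood above each of the 8 genes. Sharpin, a subunit of the linear ubiquitin assembly complex, had 20.9 ± 2.92, and Cyld, which encodes a deubiquitinase that trims the chains on RIPK1, had 11.045 ± 1.28. The adaptor gene Tradd was lowest with 1.47 ± 0.262. Of the apoptosis execution genes, 7 of 8 were detected with a median of 3.04 ± 0.0354. The caspase-8 substrate gene Bid (4.43 ± 0.354), the cytochrome c gene Cycs (3.91 ± 0.170) and Apaf1, the scaffold of the apoptosome (3.24 ± 0.191), led, and Casp6 was lowest at 1.37 and 0.96. Of 7 other necroptosis inputs and regulators, 5 were detected with a median of 2.92 ± 0.212. Chmp4b, an ESCRT subunit gene of membrane repair, had 13.0 ± 0.940, the gene Ppm1b, for a phosphatase that acts on RIPK3, had 6.56 ± 0.247 and Tlr4, the receptor for lipopolysaccharide, 4.96 ± 0.325. Ticam1, the adaptor that links Toll-like receptors to RIPK1 and RIPK3, stood at 0.41 and 0.52, and Tlr3 was lowest at 0.03 and 0.08.

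**Figure D5:**
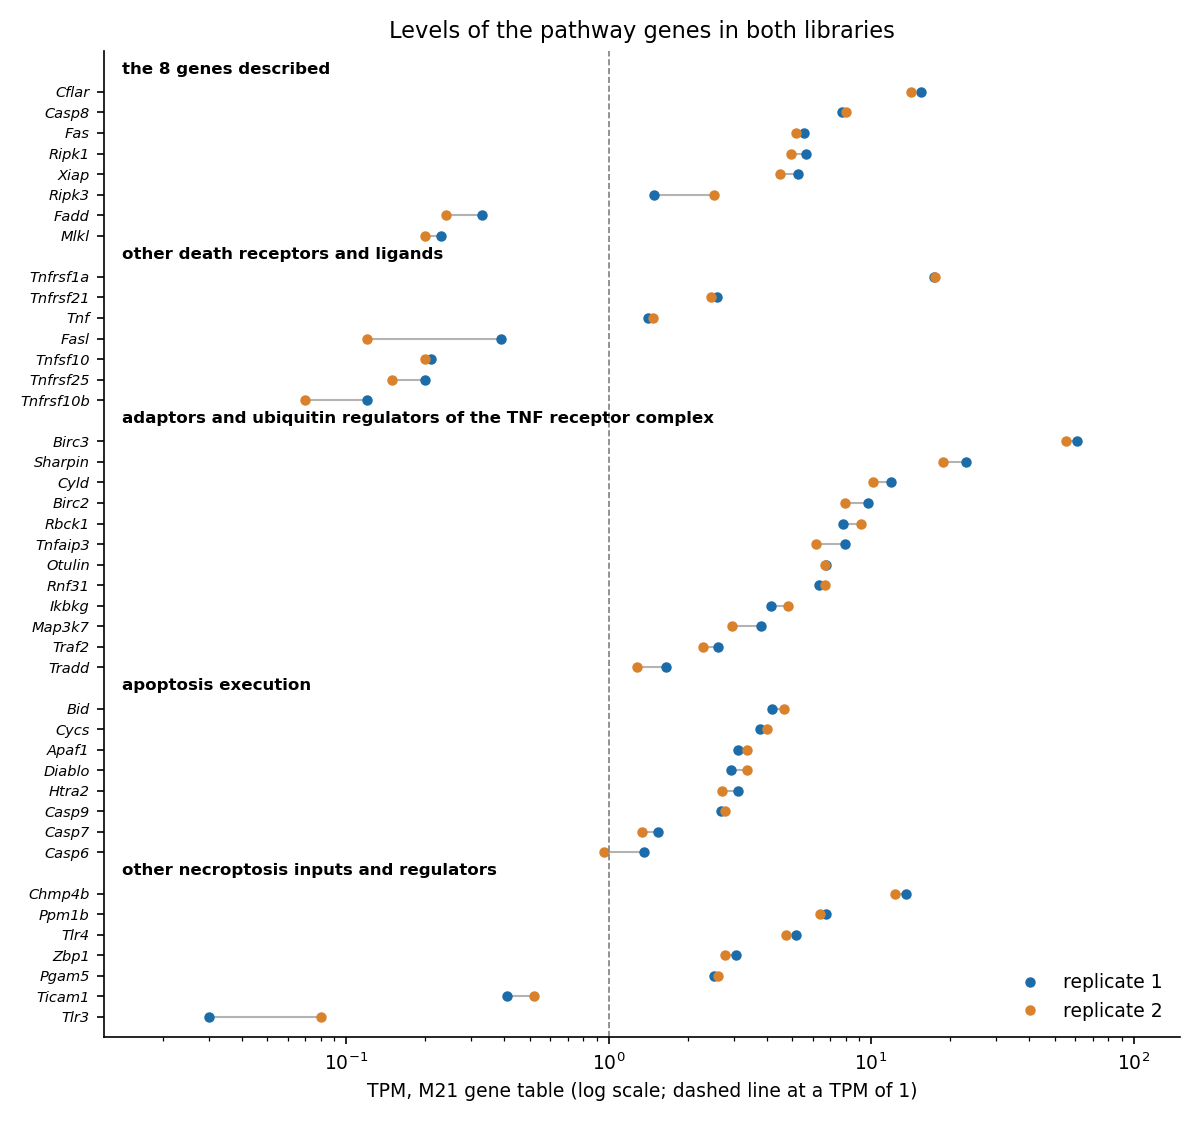
TPM (log scale) of the 8 genes and of 34 further genes in 4 lists, with 1 point for replicate 1 and 1 for replicate 2 joined by a line, and a dashed line at a TPM of 1. Birc3 was highest at 60.9 and 55.1, and Fadd and Mlkl lay with Fasl, Tnfsf10, Tnfrsf25, Tnfrsf10b, Ticam1 and Tlr3 below a TPM of 1 in both libraries.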

How the data were processed

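The deposited gene tables give an expected count and a TPM per gene and library, per the file headers, on the GENCODE M21 and M4 models of mm10 (GRCm38), and were made from reads aligned to the transcriptome, per the deposited file lists. A deposited transcript table adds the percent of the gene's TPM that each transcript takes, and interval bounds of each TPM, per the file headers. A further deposited table, called alignment-free here, gives estimated counts and tpm per transcript and has no alignment among its parent files. The programs behind these tables, and their versions: not given in the sources used here.

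M21 was the main release. Symbols came from the alignment-free identifiers, joined by gene identifier, with M21 annotation and transcript sequences. The tables also hold 26345 entries without a gene, with 37.0 and 46.4 counts (1.63e-04% and 2.16e-04%), which were left out. A count of 0 allows up to 3 counts, which is 0.132 and 0.140 CPM in replicates 1 and 2. Ratios of rounded counts have exact conditional binomial 95% intervals, which cover counting error only. They treat reads as independent, and since PCR reads are not independent molecules, they may be too narrow even for that. Pseudocounts of 1 entered the called fold. Shared coding sequence was searched at 95% identity or more over at least 100 nt (BLAST+ 2.17.0). Tools were Python 3.11.15, numpy 2.4.6, pandas 2.3.3, scipy 1.17.1, matplotlib 3.10.9, Biopython 1.88 (BLOSUM62, gap penalties 11 and 1) and R 4.3.3 with edgeR 4.0.16 and DESeq2 1.42.0 for scaling factors only.

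Named were the 8 genes, their transcripts with a share of at least 10% in either library of either table, the short form of Cflar, and of each other list the 3 highest and the lowest genes and any under a TPM of 1 in both libraries (of marker lists only the highest and the lowest). The genes and lists were chosen with earlier results of these data known. An item of the apoptosis execution list is not reported here.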

Additional observations from a re-analysis of the deposited data

How the results depend on the processing

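None of the 8 genes was called between the libraries, either in the main setting or with no minimum, with a pseudocount of 0.1 or with the alignment-free table. In the main setting only 0.924% of 9095 genes that met the minimum values were called, so this does not set the 8 genes apart. For the other settings the share of all genes is not given. The number of the 8 detected was 3 at a TPM of at least 5 and 8 at a TPM of at least 0.1 or with at least 10 expected counts, against 6. The ratios between partner genes kept their sign under every alternative run for them, but some neighbours in the order of levels changed places in 1 library. These were Ripk1 and Xiap on the M4 models and Fadd and Mlkl in the alignment-free table. Fas and Ripk1 also did so in replicate 1, with a TPM of 5.55 and 5.63 on M21 and of 5.31 and 5.17 on M4. The median TPM of the 8 genes was 8.57 in the alignment-free table and 58.9 when TPM was rescaled to protein-coding genes, against 5.06. In the alignment-free table the log2 ratio was 0.77 for Cflar over Casp8 and -0.91 for Xiap over Casp8, and on the M4 models it was 2.48 for Ripk3 over Mlkl. Measured as a share of expected counts, a setting chosen after seeing the data, the long and short forms of Cflar held 73.7% and 5.05%. The number of all genes called between the libraries was 84, and it was 294 with no minimum, 182 with a pseudocount of 0.1, 235 with the alignment-free table and 75 with the M4 table, the last chosen after seeing the data. The count ratio of Fas crossed 1 with the TMM scaling and with the alignment-free table, and that of Ripk3 with the M4 table, so neither has a direction.

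Leaving out a replicate gave the value of the other library alone. The median ran from 4.72 to 5.41, the log2 ratio of Cflar over Casp8 from 0.82 to 0.99, Fadd over Casp8 from -5.07 to -4.56, Xiap over Casp8 from -0.84 to -0.56, Ripk1 over Ripk3 from 0.97 to 1.92 and Ripk3 over Mlkl from 2.70 to 3.66. The long form ran from 34.5% to 37.0% and the short form from 7.08% to 9.84%. No paired analysis was possible because the series holds a single group. Counts were fewest for Mlkl and Fadd.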
